A study of Mus musculus with 10 samples.

Results

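The 36 genes described here act in G2 phase and mitosis, the part of the cell cycle in which a cell condenses its chromosomes, builds a spindle, separates the chromosomes and divides. They were taken, out of 14593 genes tested, as a list of mitotic kinases, cyclins, kinetochore proteins, spindle proteins and cytokinesis proteins. The genes were chosen with earlier results of these data known, so their counts beside shares of all genes are a description. Their RNA was measured in preadipocytes, the precursors of fat cells, derived from the inguinal subcutaneous fat (iSAT) of male wild-type mice of the strain given as C57 BL6. The control group of 5 libraries had the vehicle DMSO alone, and the treated group of 5 libraries had 2.5 µM BPS (bisphenol S, used as a replacement for bisphenol A) in the same vehicle. The study's title concerns reactive oxygen species in the formation of fat cells under bisphenols. Age, passage, cell density and exposure time were not given in the sources used here. Nothing stated whether replicates were separate animals or dishes, so p-values measure the spread between these libraries, which may be technical. Library numbers ran through the DMSO samples before the BPS samples, so processing order and treatment cannot be told apart.

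Mitosis is started by CDK1 bound to cyclin B and is ended by the anaphase-promoting complex, a ubiquitin ligase that marks cyclin B for destruction. Most genes of this phase are silent in resting cells and are transcribed late in each cycle, so that their RNA in a culture follows how many cells are dividing. The DREAM complex represses them in resting cells and a complex of MYBL2 with FOXM1 activates them in G2, and both act through a short promoter element, the cell cycle genes homology region (CHR), often beside CCAAT boxes bound by NF-Y. In fat tissue these genes mark dividing cells, precursor cells among them.

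Promoters are shown because genes of this phase are known to share this regulation, which did not enter the choice of the 36. A RefSeq promoter (build GRCm38.p6, 250 bases before to 50 after the start) was matched for 32 of the 36 genes, and Ccna2, Aurkb, Tpx2 and Kif20a had none in the table. The CHR was searched as TTTGAA and the CCAAT box as CCAAT, both on either strand. A CHR match stood in 26 of the 32 genes, or 81.2%, against 20.2% of 27025 genes with a promoter in the table. CCAAT occurred in 26 of 32, also 81.2%, against 41.1%, and both together in 23 of 32, or 71.9%, against 7.97%. Of 33 CHR matches in these promoters, 26 began within 50 bases of the transcription start, in 24 genes. Of 65 CCAAT matches, 52 began in the 150 bases before the start, and 19 genes held at least 2. The matches are letters in a window and were not shown to be bound. The next lines give the 130 bases before the start, 5′ to 3′ along the gene, with matches in capitals (TTTGAA or its reverse complement TTCAAA, and CCAAT or its reverse complement ATTGG). No CHR match overlapped a CCAAT match in these windows. The first 6 genes hold the CHR on this stretch, Ccnb1 holds CCAAT without a CHR match, and Nusap1 holds neither.
Cdk1, chr10:69352913-69353042, minus strand: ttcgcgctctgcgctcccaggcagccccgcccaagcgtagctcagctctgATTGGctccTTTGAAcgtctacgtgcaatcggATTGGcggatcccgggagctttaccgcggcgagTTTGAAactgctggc
Cdc20, chr4:118437344-118437473, minus strand: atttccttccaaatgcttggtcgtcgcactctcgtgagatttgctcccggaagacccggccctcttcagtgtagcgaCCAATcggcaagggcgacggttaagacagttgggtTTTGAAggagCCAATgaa
Ube2c, chr2:164769799-164769928, plus strand: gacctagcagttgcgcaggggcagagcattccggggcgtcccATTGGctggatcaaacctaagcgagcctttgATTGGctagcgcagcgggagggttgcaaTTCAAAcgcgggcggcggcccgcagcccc
Top2a, chr11:99024190-99024319, minus strand: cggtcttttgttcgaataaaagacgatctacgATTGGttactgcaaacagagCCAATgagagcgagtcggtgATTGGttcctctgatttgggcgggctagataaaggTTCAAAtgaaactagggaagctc
Kif11, chr19:37376252-37376381, plus strand: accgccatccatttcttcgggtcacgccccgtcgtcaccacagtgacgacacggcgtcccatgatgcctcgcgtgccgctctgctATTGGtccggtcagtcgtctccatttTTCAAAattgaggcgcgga
Mki67, chr7:135716380-135716509, minus strand: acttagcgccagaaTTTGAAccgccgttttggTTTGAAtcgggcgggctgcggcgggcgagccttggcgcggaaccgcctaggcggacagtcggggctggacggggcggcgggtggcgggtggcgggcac
Ccnb1, chr13:100786487-100786616, minus strand: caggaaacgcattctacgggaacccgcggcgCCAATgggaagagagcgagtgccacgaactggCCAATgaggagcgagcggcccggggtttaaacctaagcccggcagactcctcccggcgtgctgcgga
Nusap1, chr2:119618168-119618297, plus strand: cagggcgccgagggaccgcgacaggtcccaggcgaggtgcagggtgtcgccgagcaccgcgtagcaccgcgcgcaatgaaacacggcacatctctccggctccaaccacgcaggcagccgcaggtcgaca
In Cdk1 the CHR matches began 71 and 15 bases before the start, and in Cdc20 18 bases before it. Of the other genes with a promoter, Birc5 and Nuf2 also held neither element, and Bub1 and Cenpe held CCAAT without a CHR match.

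**Figure D1:**
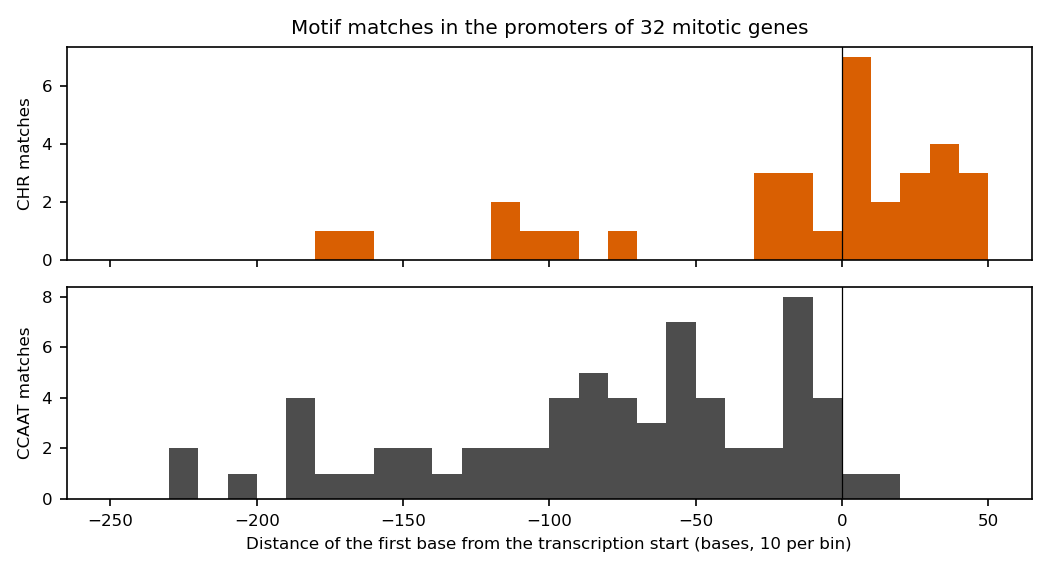
Number of CHR matches (top) and CCAAT matches (bottom) in 10-base bins of distance from the transcription start, over the first listed promoter of 32 mitotic genes. CHR matches gather around the start, where 26 of 33 lie within 50 bases, and CCAAT matches gather before it.

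All 36 genes passed the filter on low counts, and all 36 had a lower fitted level under BPS. The median log2 fold change (BPS over DMSO) was -0.14, a median change of -9.21%, against a median of 0.00 over all genes tested, 49.9% of which lay below zero. Of the 36 genes, 9 fell and 0 rose at an adjusted p under 0.05 by the quasi-likelihood test of edgeR, adjusted over all 14593 genes after Benjamini and Hochberg. Among all genes 1.82% were called lower and 3.06% higher by the same rule. Without adjustment 32 of the 36 had a p under 0.05, all lower, against 8.61% of all genes lower by that rule. The 4 others were Cdk1, Birc5, Cenpf and Nuf2. The 36 genes were measured in the same libraries and varied together among them, so such counts are not those of independent genes. A further 10 genes had an adjusted p by edgeR between 0.05 and 0.10. DESeq2's Wald test called 20 of the 36 lower and 0 higher, against 2.99% called lower of the genes to which it gave an adjusted p. With limma-voom 9 were called lower and 0 higher, and 695 of all 14593 genes were called in either direction. The number of all genes called lower alone was not taken for limma-voom. In bulk RNA, fewer cells in mitosis and less mitotic RNA per dividing cell cannot be told apart.

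BPS replicate 1 was the highest of the 5 BPS libraries in 32 of the 36 genes, the exceptions being Cenpf, Nuf2, Nusap1 and Racgap1. In 29 genes it lay at or above the lowest DMSO library. The 5 BPS values lay wholly below the 5 DMSO values in 6 genes, Bub1b, Mki67, Top2a, Cenpe, Nusap1 and Prc1, against 2.72% of all genes. With BPS replicate 1 left out, the 4 remaining values lay below all DMSO values in 24 genes, against 4.24% of all genes. The edgeR fit without that library called 25 of the 36 lower and 0 higher, against 2.11% of all genes lower in that fit, and the median log2 fold change was -0.18. The count of 25 was seen before BPS replicate 1 was singled out, so these values are a description. Leaving out DMSO replicate 1, 2 or 5 or BPS replicate 2, 3 or 5 instead left 5 genes called, Aspm, Bub1b, Mki67, Nusap1 and Prc1 in each case. Over all genes, the 10 fits that left out 1 library called 449 to 773 in either direction.

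The median over the 36 genes of log2 CPM relative to the gene's mean over 10 libraries gives 1 level per library. It was 0.12, 0.06, 0.02, 0.05 and 0.12 in DMSO replicates 1 to 5 and 0.06, -0.17, -0.11, -0.03 and -0.16 in BPS replicates 1 to 5. BPS replicate 1 thus had the level of DMSO replicate 2, BPS replicate 4 lay between the groups, and BPS replicates 2, 3 and 5 were lowest. DMSO replicate 3 was the lowest of its group in 24 of the 36 genes, and DMSO replicates 1 and 5 were the highest in 15 and 16. For 231 other genes called lower in BPS, outside the cell cycle lists, BPS replicate 1 was the highest BPS library in 44, and the other BPS libraries in 37 to 54. For 443 other genes called higher it was the lowest BPS library in 119, and the others in 55 to 121. In both sets the count of BPS replicate 1 lay within the range of the other BPS libraries, near its upper end for the genes called higher. Both sets were called with that library included, so the counts cannot show whether its shift is limited to mitotic genes. The total of BPS replicate 1, 42717227 estimated counts, was the highest of all, and the others ranged from 37920689 to 42314795.

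**Figure D2:**
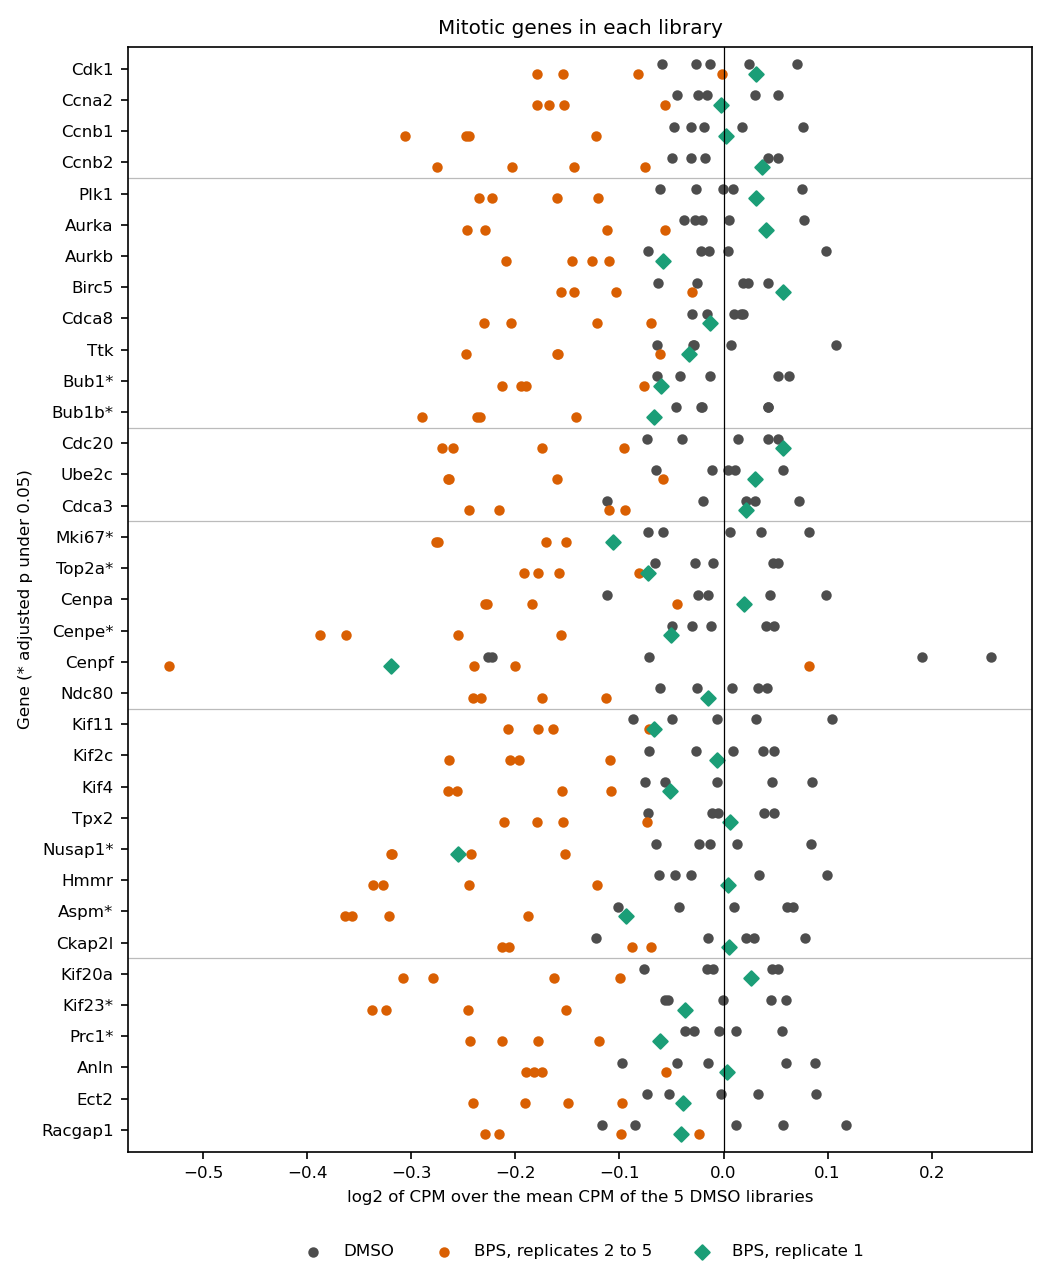
Each point is 1 library, as log2 of its CPM over the mean of the 5 DMSO libraries (x axis), for 35 mitotic genes (y axis, grouped by role; Nuf2, with about 2 CPM, is not drawn). BPS replicates 2 to 5 (orange) lie mostly left of the DMSO libraries (grey), and BPS replicate 1 (green diamonds) lies among the DMSO libraries in most genes.

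Cdk1, the kinase that drives entry into mitosis, and its cyclin partners had lower fitted levels with a median log2 fold change of -0.12. None of the 4 genes was called with all libraries (0 of 4 also by limma-voom; DESeq2 called 2, Ccna2 and Ccnb1), although 3 of 4 had an unadjusted p under 0.05. Cdk1 stood at 170.1, 166, 164, 161 and 176 CPM in DMSO replicates 1 to 5 and at 171, 150.3, 158, 167 and 148 CPM in BPS replicates 1 to 5. The groups overlapped, with BPS replicates 1 and 4 inside the DMSO range, and they gave a log2 fold change at -0.07 (SE 0.04) and an edgeR adjusted p = 0.365. Ccnb1 encodes cyclin B1, the partner of CDK1 at mitotic entry, and stood at 186, 179.8, 178, 181 and 194 CPM in DMSO replicates 1 to 5 and at 184, 149, 155, 169 and 155 CPM in BPS replicates 1 to 5. Here 4 BPS libraries lay below every DMSO library and BPS replicate 1 lay inside the DMSO range, giving a log2 fold change at -0.18 (SE 0.05) and an edgeR adjusted p = 0.0701. Ccnb2, which encodes cyclin B2, stood at 81.2, 80.5, 79.4, 84.7 and 85.2 CPM in DMSO replicates 1 to 5 and at 84.3, 67.9, 74.4, 78.0 and 71.4 CPM in BPS replicates 1 to 5. Here too BPS replicate 1 lay inside the DMSO range and the other 4 below it, with a log2 fold change at -0.13 (SE 0.05) and an edgeR adjusted p = 0.185. Ccna2, which encodes cyclin A2 of S and G2 phase, stood at 257, 249, 244, 247 and 261 CPM in DMSO replicates 1 to 5 and at 251, 224, 222, 242 and 226 CPM in BPS replicates 1 to 5. BPS replicates 2 to 5 lay below the DMSO range and BPS replicate 1 inside it, and the log2 fold change was -0.11 (SE 0.035). Without BPS replicate 1 the log2 fold changes were -0.10 for Cdk1, -0.14 for Ccna2, -0.23 for Ccnb1 and -0.17 for Ccnb2, and the latter 3 were called by edgeR.

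Of the 8 mitotic kinase and checkpoint genes, Bub1b and Bub1 fell. Bub1b encodes BUBR1, a checkpoint protein that holds back anaphase until all kinetochores are attached, and stood at 164, 157, 154, 157 and 164 CPM in DMSO replicates 1 to 5 and at 152, 135, 135, 144 and 129.9 CPM in BPS replicates 1 to 5. All BPS libraries lay below all DMSO libraries, with a log2 fold change at -0.19 (SE 0.04) and an edgeR adjusted p = 0.0156. Bub1, a kinase of the same checkpoint, stood at 98.4, 94.0, 90.8, 92.2 and 99.1 CPM in DMSO replicates 1 to 5 and at 91.0, 83.2, 81.9, 90.0 and 82.9 CPM in BPS replicates 1 to 5. BPS replicate 1 overlapped the lowest DMSO library, and it had a log2 fold change at -0.14 (SE 0.04) and an edgeR adjusted p = 0.0456. The call for Bub1 was near the threshold and was kept in 3 of 10 leave-one-out fits, those without DMSO replicate 3, BPS replicate 1 or BPS replicate 4. Aurkb, the catalytic subunit of the chromosomal passenger complex, missed the threshold narrowly, with a log2 fold change at -0.13 (SE 0.03) and an edgeR adjusted p = 0.0522. Its partners Cdca8 and Birc5 (survivin) had log2 fold changes of -0.12 (SE 0.04) and -0.07 (SE 0.04). Plk1, a kinase needed from centrosome maturation to cytokinesis, had -0.14 (SE 0.05), Aurka, the spindle pole kinase, -0.12 (SE 0.05), and Ttk, the checkpoint kinase MPS1, -0.13 (SE 0.04). For Aurka the fitted direction depended on the transcripts counted: with curated transcripts alone the log2 fold change was 0.21, not called (edgeR adjusted p = 0.859). The curated transcripts tested held 10.3% and 4.4% of its counts, with wide SEs of 0.96 and 0.47 on the log2 scale.

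The 3 genes of the anaphase-promoting complex pathway and mitotic entry were not called (0 of 3 also by DESeq2 and limma-voom, 3 of 3 lower by unadjusted p). Cdc20, the activator of the complex in metaphase, stood at 138, 129, 126, 134 and 137 CPM in DMSO replicates 1 to 5 and at 138, 110.3, 118, 125 and 111 CPM in BPS replicates 1 to 5. BPS replicate 1 was as high as the highest DMSO libraries and the other 4 lay below all of them, with a log2 fold change at -0.14 (SE 0.06) and an edgeR adjusted p = 0.185. Ube2c, the ubiquitin-conjugating enzyme that works with the complex, had a log2 fold change of -0.14 (SE 0.05), and Cdca3, which promotes mitotic entry, had -0.12 (SE 0.05).

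Of the 7 genes for chromosomes and centromeres, Mki67, Top2a and Cenpe fell. Mki67 encodes Ki-67, the standard marker of dividing cells, which coats mitotic chromosomes, and stood at 659.6, 681, 612, 618 and 646 CPM in DMSO replicates 1 to 5 and at 598, 531, 572, 579 and 532 CPM in BPS replicates 1 to 5. The groups did not overlap, with a log2 fold change at -0.19 (SE 0.04) and an edgeR adjusted p = 0.0155. Top2a, the topoisomerase that untangles sister chromatids, stood at 717, 689, 681, 663 and 719.8 CPM in DMSO replicates 1 to 5 and at 660.2, 622, 608, 656 and 613 CPM in BPS replicates 1 to 5. Its groups were also apart, by a narrow margin between BPS replicate 1 and DMSO replicate 4, with a log2 fold change at -0.14 (SE 0.03) and an edgeR adjusted p = 0.0235. Cenpe, a kinesin that moves chromosomes to the spindle equator, stood at 178, 178, 167, 169 and 171 CPM in DMSO replicates 1 to 5 and at 167, 132, 145, 155 and 134 CPM in BPS replicates 1 to 5. BPS replicate 1 lay just under the lowest DMSO library and the other BPS libraries well below, with a log2 fold change at -0.24 (SE 0.06) and an edgeR adjusted p = 0.0351. Leaving out 1 library ended the call of Top2a in 6 of 10 fits (those without DMSO replicate 1, 2 or 5, or BPS replicate 2, 3 or 5) and that of Cenpe in 8 (all but those without BPS replicate 1 or 4), while Mki67 was called in all 10 but not with the replicate number as a block. Ndc80, which links kinetochores to microtubules, had a log2 fold change at -0.15 (SE 0.04) and an edgeR adjusted p = 0.0575. Cenpa, the histone variant that marks centromeres, had a log2 fold change of -0.13 (SE 0.05). The kinetochore protein gene Cenpf varied within both groups, from 83.4 to 117 CPM in DMSO and from 67.5 to 103 CPM in BPS, and its difference did not exceed that spread (adjusted p = 0.336 by edgeR). Nuf2, the partner of NDC80 in the same complex, had 36 to 131 counts per library, and its log2 fold change of -0.45 had an SE of 0.29, with 2.61 ± 0.972 CPM in DMSO against 1.90 ± 0.564 CPM in BPS (SD, n = 5 each), so its difference was not beyond the spread between replicates.

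Of the 8 genes of the spindle and its motors, Nusap1 and Aspm fell. Nusap1, which bundles spindle microtubules near chromosomes, had the smallest p of the 36 genes and stood at 74.1, 70.5, 66.8, 68.7 and 69.2 CPM in DMSO replicates 1 to 5 and at 58.5, 56.0, 59.1, 62.9 and 56.0 CPM in BPS replicates 1 to 5. The highest BPS library was below the lowest DMSO library, and BPS replicate 1 was the third of the BPS libraries rather than the highest, with a log2 fold change at -0.26 (SE 0.04) and an edgeR adjusted p = 0.00227. Aspm, a spindle pole protein, stood at 114, 109.8, 102, 106 and 114 CPM in DMSO replicates 1 to 5 and at 102, 84.7, 87.2, 95.7 and 85.1 CPM in BPS replicates 1 to 5. Only BPS replicate 1 reached the lowest DMSO library, with a log2 fold change at -0.26 (SE 0.05) and an edgeR adjusted p = 0.0177. Both genes were called in all 10 fits that left out 1 library, but Aspm was not called with exact version matching or with curated transcripts alone. Hmmr, a spindle assembly factor, had a log2 fold change at -0.20 (SE 0.06) and an edgeR adjusted p = 0.0901, and its BPS replicate 1 value of 143 CPM lay inside the DMSO range of 137 to 153 CPM. The other 5 had log2 fold changes of -0.16 for Kif4, a chromosome kinesin, -0.15 for Kif2c, which depolymerises microtubules, -0.14 for Kif11, which pushes spindle poles apart, -0.12 for Tpx2, the activator of Aurora A, and -0.11 for Ckap2l, a spindle protein (SE 0.04 to 0.05). All 5 had an unadjusted p under 0.05, and none had an adjusted p under 0.05 by edgeR.

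Of the 6 genes of the spindle midzone and cytokinesis, Prc1 and Kif23 fell. Prc1 crosslinks the antiparallel microtubules of the midzone and stood at 133, 137, 141, 135 and 132 CPM in DMSO replicates 1 to 5 and at 129.9, 114, 125, 119.8 and 117 CPM in BPS replicates 1 to 5. The groups did not overlap, with a log2 fold change at -0.16 (SE 0.03) and an edgeR adjusted p = 0.0174, and the call held in all 10 fits that left out 1 library. Kif23, a motor subunit of centralspindlin, stood at 128, 123, 118, 118 and 127 CPM in DMSO replicates 1 to 5 and at 119.6, 98.0, 103, 110.4 and 97.1 CPM in BPS replicates 1 to 5. BPS replicate 1 lay inside the DMSO range and the others below it, with a log2 fold change at -0.21 (SE 0.05) and an edgeR adjusted p = 0.0405. This call held in 1 of the 10 fits, the fewest of the 9 genes, the one without BPS replicate 1. Racgap1, the other subunit of centralspindlin, had a log2 fold change of -0.12 (SE 0.05). Kif20a, a midzone kinesin, had -0.16 (SE 0.055), Ect2, the activator of RhoA at the cleavage furrow, -0.14 (SE 0.04), and Anln, a scaffold of the contractile ring, -0.12 (SE 0.045).

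**Figure D3:**
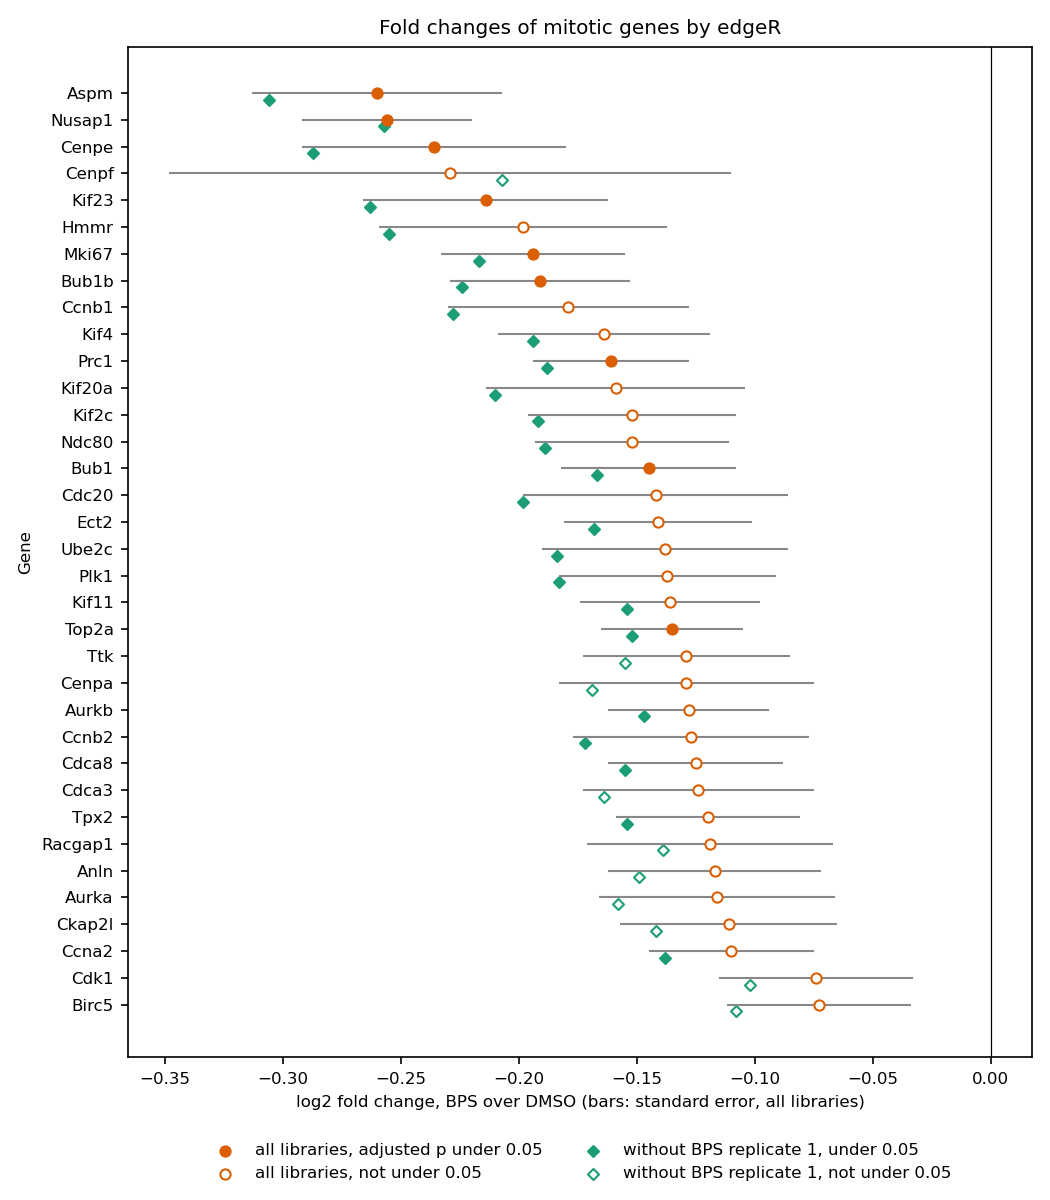
Log2 fold change, BPS over DMSO, of 35 mitotic genes (circles, bars are the standard error, filled where the adjusted p by edgeR was under 0.05) and of the same genes without BPS replicate 1 (diamonds, filled likewise; Nuf2 is not drawn). The 35 circles lie below zero, 9 of them are filled with all libraries, and 25 diamonds are filled without that library.

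The other genes of the mitotic programme were taken from 6 lists, chosen like the lists below with earlier results of these data known. The 6 lists held 128 genes, all of which were tested. Of these, 23 fell and 0 rose by edgeR, against 1.82% of all genes lower and 3.06% higher (1 had an unadjusted p under 0.05 and was higher, Rbbp4, named after its value was seen; DESeq2 and limma-voom called 0 higher). The fitted change was below zero for 111 of them, with a median of -0.08. Without BPS replicate 1, 43 fell and 0 rose, against 2.11% of all genes lower. Differences between the lists were not tested.

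Condensin and cohesion genes had 6 of 14 lower, and their median was -0.13 on the log2 scale. Those that fell were the condensin subunits Ncapd2 (-0.13), Ncapg (-0.15) and Ncaph (-0.14), the cohesin protectors Sgo1 (-0.14) and Sgo2a (-0.20), and the cohesin acetyltransferase Esco2 (-0.17). Other spindle and cytokinesis genes had 8 of 33 lower and a median of -0.14 (24 of 33 without BPS replicate 1). The 5 with the smallest p were Cit, the citron kinase of the midbody (-0.21), Cdca2 (-0.14), Iqgap3 (-0.14), the kinesin Kif14 (-0.20) and the microtubule polymerase Ckap5 (-0.14). Other kinetochore and checkpoint genes had 5 of 30 lower and a median of -0.07, and those that fell included Hjurp, the chaperone that deposits CENPA (-0.16), Incenp, the scaffold of the Aurora B complex (-0.15), the kinetochore scaffold Knl1 (-0.20) and Spc25 of the NDC80 complex (-0.12).

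Among 16 genes that control mitotic entry, G2e3 (-0.18) and the phosphatase Cdc25b (-0.15), which activates CDK1, fell (median -0.07). The 17 genes of the anaphase-promoting complex and its regulators had a median of 0.00 (-0.005), and 0 were called by edgeR or limma-voom. In that list Fzr1 and Fbxo5 had an unadjusted p under 0.05, DESeq2 called Fzr1, and both were named after their values were seen. Of 18 transcriptional regulators of these promoters, Foxm1 and Rbl2 fell (median -0.02). Foxm1, the activator of G2 genes, stood at 148 ± 4.67 CPM with DMSO against 136 ± 4.91 CPM with BPS (SD, n = 5 each), a log2 difference of -0.13 (SE 0.03; edgeR adjusted p = 0.0243) and no overlap between groups. This call was kept in 4 of 10 leave-one-out fits, and lost without DMSO replicate 1, 2, 4 or 5 or BPS replicate 2 or 3, and in the fit with the replicate block. Rbl2, which encodes the p130 subunit of the DREAM repressor, stood at 52.3 ± 1.16 CPM with DMSO against 47.8 ± 1.41 CPM with BPS (SD, n = 5 each), a log2 difference of -0.13 (SE 0.03; edgeR adjusted p = 0.0152), also without overlap, and was lost in the fit with the replicate block alone. Mybl2, the other activator, stood at 40.1 ± 1.41 CPM with DMSO against 41.5 ± 1.64 CPM with BPS (SD, n = 5 each), and its log2 difference was not called at 0.05 (SE 0.03; edgeR adjusted p = 0.486).

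Genes of the preceding phase were centred on zero. The median of the 50 genes of G1/S and DNA replication was 0.00 on the log2 scale, 24 of them lay below zero, and 0 were called by edgeR or limma-voom. Without adjustment 5 were lower (Cdc7, Dbf4, Gins4, Lig1 and Clspn) and 1 higher (Mcm2), DESeq2 called Dbf4 and Lig1 lower, and the edgeR fit without BPS replicate 1 called Dbf4 lower. These names were chosen after their values were seen. The library level of this list lay between -0.03 and 0.04 in all 10 libraries and was -0.03 in BPS replicate 1. Its promoters held a CHR match in 17.5% of 40 genes, against 42.5% of 106 promoters of the other G2/M genes. The shares with a CCAAT match were close, at 57.5% of the 40 and 60.4% of the 106. Over the 27025 genes with a promoter, 20.2% held a CHR match and 41.1% a CCAAT match. A difference between the 2 groups of genes was not tested.

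**Figure D4:**
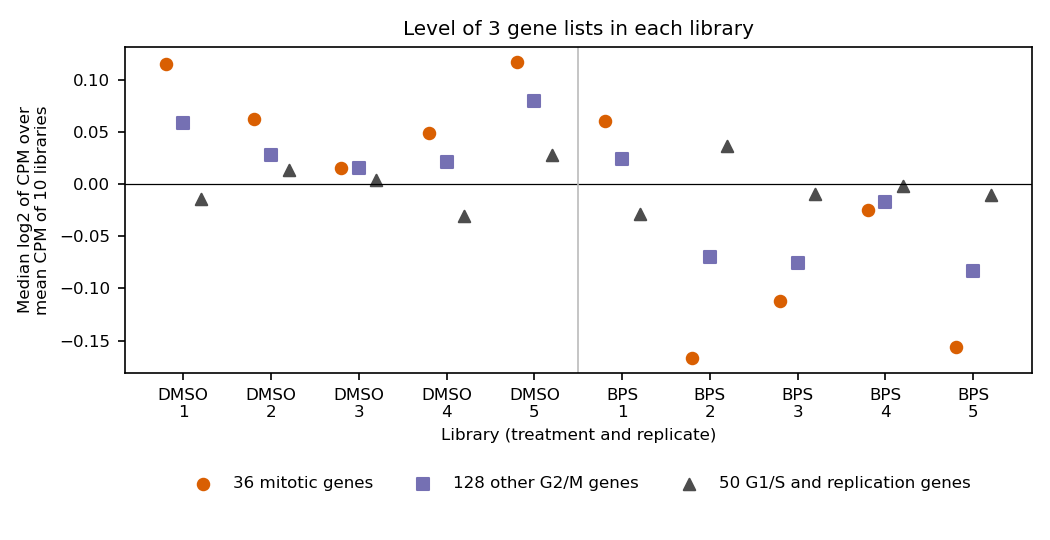
Median log2 of CPM over the mean of 10 libraries (y axis) for the 36 mitotic genes, 128 other G2/M genes and 50 G1/S and replication genes in each library (x axis). The mitotic level runs from 0.02 to 0.12 in DMSO and from -0.17 to 0.06 in BPS, with BPS replicate 1 highest of the BPS libraries.

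Of 13 CDK inhibitors, D cyclins and their kinases, 3 rose and 2 fell by edgeR, against 3.06% of all genes higher and 1.82% lower. Ccnd2, which encodes cyclin D2 and drives G1, rose from 594 ± 18.4 to 666 ± 16 CPM (SD, n = 5 each), by 0.17 (SE 0.02; edgeR adjusted p = 0.00236) on the log2 scale. Ccnd1, for cyclin D1, rose by 0.20 (SE 0.04; edgeR adjusted p = 0.0214), and its groups overlapped. This call was lost without DMSO replicate 2, 3 or 4, BPS replicate 2 or 4, and with curated transcripts alone, while that of Ccnd2 held in every alternative run. Cdkn1a, which encodes the CDK inhibitor p21, rose at the threshold, by 0.15 (SE 0.04; edgeR adjusted p = 0.0498), and this call held in 2 of 10 leave-one-out fits, those without DMSO replicate 4 or BPS replicate 5 (log2 fold change 0.12 without BPS replicate 1), and was lost with limma-voom among others. Cdkn2c and Cdkn2d, inhibitors of CDK4 and CDK6, fell by 0.12 and 0.13 on the log2 scale. The Cdkn2c call was lost without DMSO replicate 3, 4 or 5 or BPS replicate 2, 3 or 5. That of Cdkn2d was lost with limma-voom and held in 1 of 10 leave-one-out fits, the one without BPS replicate 1. Cdkn1b, for p27, stood at 78.0 ± 2.17 CPM with DMSO against 73.9 ± 3.34 CPM with BPS (SD, n = 5 each) and was not called at -0.08 (SE 0.03; edgeR adjusted p = 0.193).

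**Figure D5:**
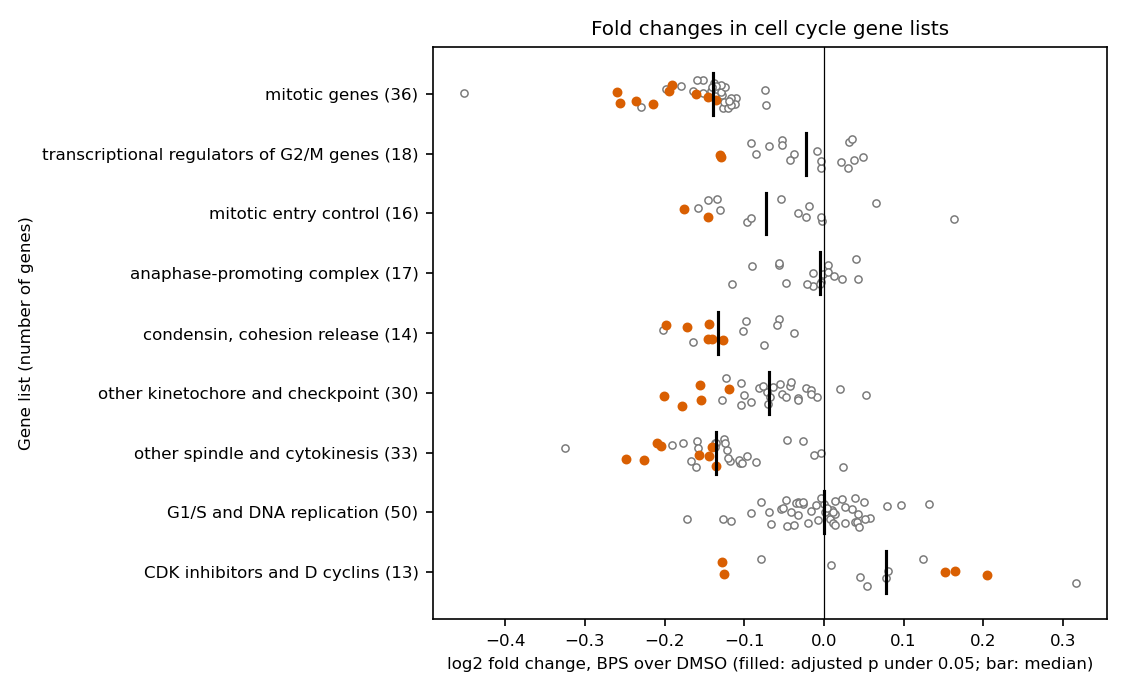
Log2 fold change, BPS over DMSO (x axis), of each gene in 9 lists (y axis; filled points have an adjusted p under 0.05 by edgeR, the bar is the median). The mitotic list and the lists for condensin and for other spindle genes lie mostly left of zero, with medians of -0.14, -0.13 and -0.14, and the G1/S list is centred on zero.

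The 36 genes had 84 tested transcripts, 72 of them (85.7%) with a fitted change below zero against 49.98% of all 37588 transcripts tested, and 13 genes had a single one. Tested singly, 2 of the 84 were called, both lower, against 0.0931% of all transcripts called lower: the main Nusap1 transcript, with 85.3% of the gene's counts (log2 difference -0.27, SE 0.03, edgeR adjusted p = 0.0105 over all transcripts), and the second Mki67 transcript, with 38.6% (-0.25, SE 0.04, edgeR adjusted p = 0.0374). All 3 tested Mki67 transcripts were predicted models.

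The 12 preadipocyte markers ranged widely in level. Pdgfra, a receptor of fat precursors, averaged 904 ± 14.4 CPM with DMSO against 863 ± 22.8 CPM with BPS (SD, n = 5 each), and Dlk1, Thy1 and Pdgfrb averaged 439.6, 848 and 646 CPM in DMSO, while Dpp4 averaged 2.45 CPM, Pi16 2.02 CPM and Cd24a 0.355 CPM in DMSO. All 12 were tested, of which Cd34 and Thy1 rose and 0 fell. For these and the markers below, 3.06% of all genes called higher and 1.82% called lower are the background. Mature adipocyte, lymphocyte and epithelial markers summed to at most 0.423 CPM in any library, with Lep, Cd3e and Cd3g at 0 counts in all. Macrophage markers summed to 11.4 to 18.2 CPM in DMSO and 12.4 to 20.9 CPM in BPS, with Csf1r at 0 in all libraries, and endothelial markers to 17.9 to 23.5 and 17.4 to 23.3 CPM, with none called among them. Mural markers summed to 78.4 to 83.8 CPM in DMSO and, without overlap, to 86.4 to 100.1 CPM in BPS (91.6 CPM in BPS replicate 1). Of the 7 genes 2 rose, Mcam and Cspg4. These 2 held most of the sum, with means of 20.1 and 39.1 CPM in DMSO and 25.9 and 43.5 CPM in BPS. Rgs5, Myh11, Notch3, Kcnj8 and Abcc9 were not called. Mesothelial markers summed to 9.06 to 11.0 CPM in DMSO and 11.0 to 12.9 CPM in BPS. Most of this was Krt19, with means of 9.34 CPM in DMSO and 11.2 CPM in BPS. Krt19 rose, 1 of the 2 of 6 genes that were tested. Wt1, the other, had a lower fitted level and was not called (log2 fold change -0.59, SE 0.22, edgeR adjusted p = 0.155). Msln and Upk3b were at 0. The part of the mural and mesothelial markers in the lower mitotic RNA was not tested.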

How the data were processed

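RNA sequencing of 10 libraries, 5 DMSO and 5 BPS, was analysed. The authors deposited estimated counts for 107384 RefSeq transcripts, made with kallisto 0.42.4 per the submitters' processing notes; the index, build and strand setting were not given in the sources used here, and promoter coordinates are those of the RefSeq table. Transcripts were assigned to genes by accession without version through a RefSeq table of GRCm38.p6, used for names, which placed 93.1% of counts in genes. The remaining transcripts stayed out, so isoforms of the 36 genes may be among them. Columns without a sample numbered 0. Totals ran from 37920689 to 42717227 per library, and precision at these depths is set by replicate spread. Counts were summed, rounded, filtered with filterByExpr and scaled by TMM. BPS and DMSO were compared with edgeR's quasi-likelihood test (edgeR 4.0.16, R 4.3.3) without covariates, two-sided, with Benjamini-Hochberg adjustment over all genes. CPM was taken over TMM-scaled library sizes. The SE is the unshrunken log2 fold change over the square root of F. limma 3.58.1 and DESeq2 1.42.0 served as alternatives, with other scalings, filters, transcript choices, a replicate block and leaving out each library. Code was tested on simulated counts with seeded changes. Of changes of 0.15 on the log2 scale, 23.7% were recovered among 59 seeded genes with a mean of at least 1 CPM, and 5.71% of all calls were false. A gene that was not called may thus have a change of that size. The seeded genes were drawn over all levels and were fewer than the genes called in the data, so the rate need not hold for the 36 genes. Sequences came from RefSeq; no protein sequence was used here. The members and lists were chosen with earlier results of these data known. The naming rule gave all 36 genes, called genes and cyclin partners of CDK1 with values per library, and up to 5 called genes per list and direction. The comparison without overlap that leaves out BPS replicate 1 was chosen after seeing the data.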

Additional observations from a re-analysis of the deposited data

How the results depend on the processing

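The direction below zero was the same for all of the 36 genes tested in 17 of 19 alternatives. The 2 others used fewer transcripts and turned Aurka, to 0.21 (0.212) with exact version matching and 0.21 with curated transcripts only. Neither value was called (edgeR adjusted p = 0.846 and 0.859), and the curated choice leaves out the predicted model with 85.3% of its counts. The count of 9 genes called lower was 9 or 10 under the other scalings, without a filter and with limma-voom (library size alone added Aurkb). It was 20 with the DESeq2 Wald test and 5 with the replicate block. With exact version matching it was 3 (32 genes tested, without Cdk1, Ccna2, Kif11 and Mki67). With curated transcripts only it was 2 (35 tested, without Mki67). Over all genes, 711 of 14593 were called in either direction in the main fit. Under these last 3 alternatives 371 of 14593, 327 of 11758 and 311 of 13154 were called in either direction. The number called lower alone was not taken for these 3. Bub1, Kif23, Mki67 and Top2a lost their call with the block, Aspm, Bub1, Cenpe, Kif23 and Top2a with exact version matching and with curated transcripts only, and Bub1b with the latter. Nusap1 and Prc1 were called in every alternative run. The replicate block rests on numbers that did not pair the libraries: correlations of deviations between same-numbered libraries were 0.10, 0.004, -0.067, 0.072 and -0.078.

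Leaving out 1 library gave 5 to 25 of the 36 called lower, 449 to 773 genes called, and a median log2 fold change of -0.178 to -0.124. The count was 5 without DMSO replicate 1, 2 or 5 or BPS replicate 2, 3 or 5, and 25 without BPS replicate 1. The number of genes without overlap between groups went from 6 to 24 without BPS replicate 1. None of the 36 was called higher in any alternative run. Apart from the transcripts and libraries left out, the cause of these shifts was not tested. Nuf2 had the fewest counts of the 36 genes, 36 to 131 per library.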

Other observations

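The 4 longest of the 36 mRNAs were among those with the larger changes. Cenpf, Mki67, Aspm and Cenpe, each with a longest GENCODE M21 transcript over 6000 bases, had a median log2 fold change of -0.23, against -0.14 for the other 32. Across the 36 genes Spearman's rho between longest transcript and log2 fold change was -0.34, a description over genes measured in the same libraries. Over 13844 tested genes with a length it was -0.06, and the medians were -0.01 for 1961 genes over 6000 bases and 0.00 for the rest. These values were computed after the fold changes had been seen.

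Transcripts of Ect2 had unlike fitted changes. The second most abundant averaged 1316.6 counts in DMSO and 897.8 in BPS, and a predicted one averaged 202.4 and 428.4, but their SEs of 0.19 and 0.75 on the log2 scale were wide and neither was called by edgeR (adjusted p = 0.583 and 0.954). Nuf2 was represented by 1 tested transcript with a mean of 84.1 counts per library. Dixon's 95% criterion marked 0 of 72 groups of 5 values as having a library apart, where chance gives 3.6. The criterion takes each gene alone, and the groups come from the same 10 libraries and are not independent. It therefore does not test a shift of 1 library that is shared over genes.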
